A study of Mus musculus with 17 samples.

Results

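Described here are 10 cyclin and cyclin-dependent kinase genes, *Ccna1*, *Ccna2*, *Ccnb1*, *Ccnb2*, *Ccnd2*, *Ccnd3*, *Ccne1*, *Ccne2*, *Cdk1* and *Cdk2*, in spermatogenic cells of mice with and without a germ cell deletion in *Nat10*. They were chosen by gene name, and all 10 were found among the 23282 gene symbols of the deposited table. The RNA came from FACS-sorted cells of mice of the strain C57BL/6, labelled WT or *Stra8*-cre *Nat10* knockout (SKO), taken at the spermatogonial stage (SPG), the pre-leptotene stage (PreL) and the leptotene and zygotene stages together (LZ). SPG and PreL had 3 WT and 3 SKO libraries each, and LZ had 2 WT and 3 SKO libraries. In the SKO mice a Cre knocked in at *Stra8*, a gene that germ cells switch on before meiosis, excised exons 4 and 5 of *Nat10*, which encodes the enzyme that places N4-acetylcytidine on RNA. The study writes their genotype as *Nat10* fl/-;*Stra8*-GFP Cre, with 1 floxed and 1 null allele. Its fertility test used *Nat10* fl/+ and *Nat10* fl/fl littermates as controls, and whether the sequenced WT mice were of these genotypes, their age, and how many animals stand behind a library are not given in the sources used here, so a p-value measures the spread between libraries, which may be technical.

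Cyclins are the regulatory subunits of cyclin-dependent kinases (CDKs). D-type cyclins act in G1, cyclin E with CDK2 at entry into S phase, cyclin A with CDK2 or CDK1 through S and G2, and cyclin B with CDK1 at entry into M phase. Spermatogonia divide by mitosis, pre-leptotene spermatocytes copy their DNA for the last time, and leptotene and zygotene spermatocytes pair their chromosomes in a long prophase. *Ccna1* is the cyclin A of the male germ line, which spermatocytes use late in that prophase, and CDK2 also sits on meiotic chromosomes.

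The 10 genes lie on 8 chromosomes (GENCODE, GRCm38). The A-type and B-type cyclins and *Cdk1* are *Ccnb1* at chr13:100778650-100786570 (minus strand), *Ccnb2* at chr9:70407692-70421547 (minus strand), *Cdk1* at chr10:69335146-69352938 (minus strand), *Ccna1* at chr3:55045469-55055501 (minus strand) and *Ccna2* at chr3:36564865-36572150 (minus strand). The E-type and D-type cyclins and *Cdk2* are *Ccne1* at chr7:38097984-38107534 (minus strand), *Ccne2* at chr4:11191351-11204779 (plus strand), *Cdk2* at chr10:128697939-128705031 (minus strand), *Ccnd2* at chr6:127125162-127152193 (minus strand) and *Ccnd3* at chr17:47505051-47599691 (plus strand).

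The promoters of *Ccnb1*, *Ccnb2* and *Cdk1* are shown because cyclin B1 and B2, partners of the same kinase, took different courses in SKO cells. The sequences are those of RefSeq on GRCm38.p6, written 5′ to 3′ on the minus strand that each gene uses, from chr13:100786541-100786736 for *Ccnb1*, chr9:70421555-70421804 for *Ccnb2* and chr10:69352913-69353162 for *Cdk1*. Capitals mark CCAAT or its reverse ATTGG, the box bound by the factor NF-Y, and TTTGAA, the core of the cell cycle homology element. The reverse TTCAAA was searched too. Other forms of the element were not searched, so a window without TTTGAA may still hold one.
Ccnb1: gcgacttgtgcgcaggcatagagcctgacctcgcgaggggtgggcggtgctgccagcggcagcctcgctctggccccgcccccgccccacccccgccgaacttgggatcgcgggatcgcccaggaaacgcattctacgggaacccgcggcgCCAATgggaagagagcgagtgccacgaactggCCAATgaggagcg
Ccnb2: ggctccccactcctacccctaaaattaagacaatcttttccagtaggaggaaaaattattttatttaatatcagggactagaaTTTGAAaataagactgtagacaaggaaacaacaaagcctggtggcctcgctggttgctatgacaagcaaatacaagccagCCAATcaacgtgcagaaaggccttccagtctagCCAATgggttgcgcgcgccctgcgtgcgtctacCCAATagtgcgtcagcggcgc
Cdk1: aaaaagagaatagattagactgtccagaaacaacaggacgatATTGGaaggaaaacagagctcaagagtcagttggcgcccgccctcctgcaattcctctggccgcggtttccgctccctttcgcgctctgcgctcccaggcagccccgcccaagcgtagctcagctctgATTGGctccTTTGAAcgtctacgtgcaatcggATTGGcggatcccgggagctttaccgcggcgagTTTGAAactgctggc
In the full window of 300 bases (250 before the RefSeq start and 50 after it), *Ccnb1* held 2 CCAAT boxes, 99 and 67 bases before the start, and no TTTGAA. The GENCODE start of *Ccnb1* lies 84 bases before the RefSeq start, so the box at 67 is inside the GENCODE transcript. *Ccnb2* held 3 CCAAT boxes, 87, 54 and 21 bases before its start, with TTTGAA 167 bases before and again 4 bases after it. *Cdk1* held 3 boxes in reverse, 208, 80 and 48 bases before its start, with TTTGAA 71 and 15 bases before it, the latter inside the GENCODE transcript, which starts 26 bases earlier. No CCAAT match overlapped a TTTGAA match. Among 32851 promoter windows of the same length, 37.4% held at least 1 CCAAT, 11.7% at least 2 and 3.37% at least 3, and 17.9% held TTTGAA, with 2.31% holding it at least 2 times. Of the 7 members with an entry, *Ccna1* and *Cdk2* held 1 CCAAT each, *Ccnd3* held 1 at the second of its starts, and *Ccne1* held neither motif. A match of letters is a description of the window, and binding was not measured.

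The values are ERCC-calibrated counts, that is, read counts multiplied by a factor per library set from added control RNA and the cell input. Dividing by that factor gave back whole reads, 5812380 to 13820953 per library, with the fewest in SKO LZ. Levels below are normalised read counts, the calibrated counts rescaled by a median-of-ratios size factor per library, set over all 17, and fold changes are on the log2(value + 10) scale, which understates changes of low genes. A gene was called at an adjusted p-value under 0.05 (limma, Benjamini-Hochberg over all genes tested) with an absolute log2 fold change above 1. Without the rescaling, the median log2 fold change of all genes tested moved from 0.00 to -0.25 in SPG, from 0.04 to 0.73 in PreL and from -0.13 to -0.25 in LZ (SKO against WT), so every change is relative to the bulk of the transcriptome. *Nat10* was lower in every SKO library than in any WT library of its stage, at 318 to 470 against 680 to 799 in SPG, 232 to 317 against 542 to 823 in PreL and 184 to 255 against 546 and 724 in LZ. The counts are per gene, over the 29 exon blocks of *Nat10*, and do not isolate the deleted exons.

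Markers of other cell types differed between genotypes in the sorted fractions. Summed over 12 spermatid markers, the normalised counts were 2873 to 7255 in WT SPG against 97.8 to 197 in SKO SPG, 14867 to 24021 against 251 to 302 in PreL, and 17412 to 22252 against 209 to 327 in LZ. Of these markers, 9 of 11 tested were called lower in SKO SPG, 8 of 11 in SKO PreL and 12 of 12 in SKO LZ. Of all genes tested, 2.06%, 5.83% and 25.8% were called lower in these stages. *Acrv1*, *Catsper4* and *Akap4* stayed at or under 3 reads in every SKO library. The sum over 12 late spermatocyte markers was 6003 to 7152 in WT SPG against 3223 to 6242, 10747 to 30961 in WT PreL against 3101 to 4215, and 85423 and 198134 in WT LZ against 5183 to 6753. *Pgk2* and *Adam3* were at or under 3 reads in every SKO PreL and SKO LZ library. Sums of somatic markers were higher in the SKO fractions for 8 Leydig genes (1315 to 4888 against 126 to 335 in SPG, 932 to 9252 against 133 to 400 in PreL, 2592 to 6766 against 529 and 1120 in LZ) and 8 macrophage genes (1997 to 3397 against 177 to 314, 597 to 1925 against 251 to 612, and 207 to 988 against 25.3 and 185, with the lowest SKO PreL library below the highest WT one). The 6 peritubular myoid genes summed to 5627 to 10472 against 27.2 to 944 in SPG, 640 to 2816 against 160 to 695 in PreL, where they overlapped, and 1204 to 1935 against 367 and 405 in LZ. The 8 Sertoli genes, with *Amh* at or under 3 reads in every library, summed to 1156 to 2191 against 558 to 783 in SPG, 1513 to 18874 against 1531 to 1703 in PreL and 13537 to 16268 against 6317 and 24048 in LZ. The 5 endothelial genes stayed at 193 or lower, with none called. They summed to 52.4 to 135.6 against 5.83 to 42.2 in SPG, 92.4 to 193 against 5.97 to 100.5 in PreL, where they overlapped, and 70.8 to 120.4 against 24.1 and 66.1 in LZ. Spermatogonial and early meiotic markers were present in every group: all 13 early meiotic genes and at least 11 of 12 spermatogonial genes passed 3 reads in some library. The spermatogonial sum was higher in SKO SPG (24220 to 24962 against 17788 to 19838) and SKO LZ (20924 to 24976 against 10090 to 16928) without overlap and overlapped in PreL (15867 to 17375 against 14755 to 16004), with 2, 3 and 4 of the 12 called higher in SKO in SPG, PreL and LZ and 1 called lower in LZ. The early meiotic sum was higher in SKO SPG (130573 to 137731 against 94164 to 97623) and SKO PreL (164450 to 266576 against 140615 to 156844) and overlapped in LZ. Of its 13 genes 1 was called higher in PreL and 1 lower in LZ. Beside these spermatogonial and early meiotic calls, 3.95%, 5.32% and 13.4% of all genes tested were called higher in SPG, PreL and LZ, and 25.8% lower in LZ. The part of these cells in the results on the cyclins was not tested, and in bulk libraries fewer cells of a type and less RNA per cell cannot be told apart.

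Among the 10 members read per length (reads per kilobase of exon, scaled to the library's reads), a B-type cyclin had the highest mean level in every group. Length is that of the merged exons of a gene's GENCODE basic transcripts, 4466 bases for *Cdk1* and 2411 for *Cdk2*. The order of genes depends on this choice of length. *Ccnd2* and *Ccnd3* were among the 3 lowest in every group. In WT SPG, *Ccnb1* at 146 ± 9.79 and *Ccnb2* at 140.8 ± 16.4 (SD, n = 3 throughout the SPG levels) overlapped each other, followed by *Ccna2* at 66.4 ± 6.16, *Cdk2* at 43.8 ± 4.96 and *Ccne2* at 31.6 ± 2.99, each apart from its neighbours. *Ccne1* at 13.5 ± 4.36 overlapped *Cdk1* at 11.7 ± 1.45, and *Ccnd3*, *Ccnd2* and *Ccna1* at 1.28, 1.12 and 0.446 overlapped in turn. In WT PreL the order flattened: *Ccnb2* (68.3 ± 9.15), *Cdk2* (63.5 ± 7.11), *Ccna2* (53.3 ± 9.58), *Ccne2* (48.1 ± 15.5) and *Ccnb1* (46.3 ± 7.10) overlapped in turn. *Ccnb1* stood apart from *Ccne1* below it. In SKO PreL, *Ccnb1* stood first at 182 ± 16.5, apart from *Ccnb2* at 113 ± 8.24, and both stood apart from *Ccna2* at 58.5 ± 3.59. In SKO LZ the order was *Ccnb1* (195 ± 35.9), *Ccna2* (76.4 ± 4.40), *Ccnb2* (47.1 ± 7.39), *Cdk2* (38.2 ± 1.85), *Cdk1* (31.4 ± 4.45), *Ccne2* (13.8 ± 0.964) and then *Ccne1*, with no overlap between neighbours down to *Ccne1*. In the pair of WT LZ libraries *Ccnb2* (165 ± 16.7) and *Ccnb1* (130.6 ± 42.2) led and overlapped. Further down, *Ccna2*, *Cdk1*, *Ccna1* and *Ccne2* overlapped in turn, and *Ccne2* stood apart from *Ccne1* below it.

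**Figure D1:**
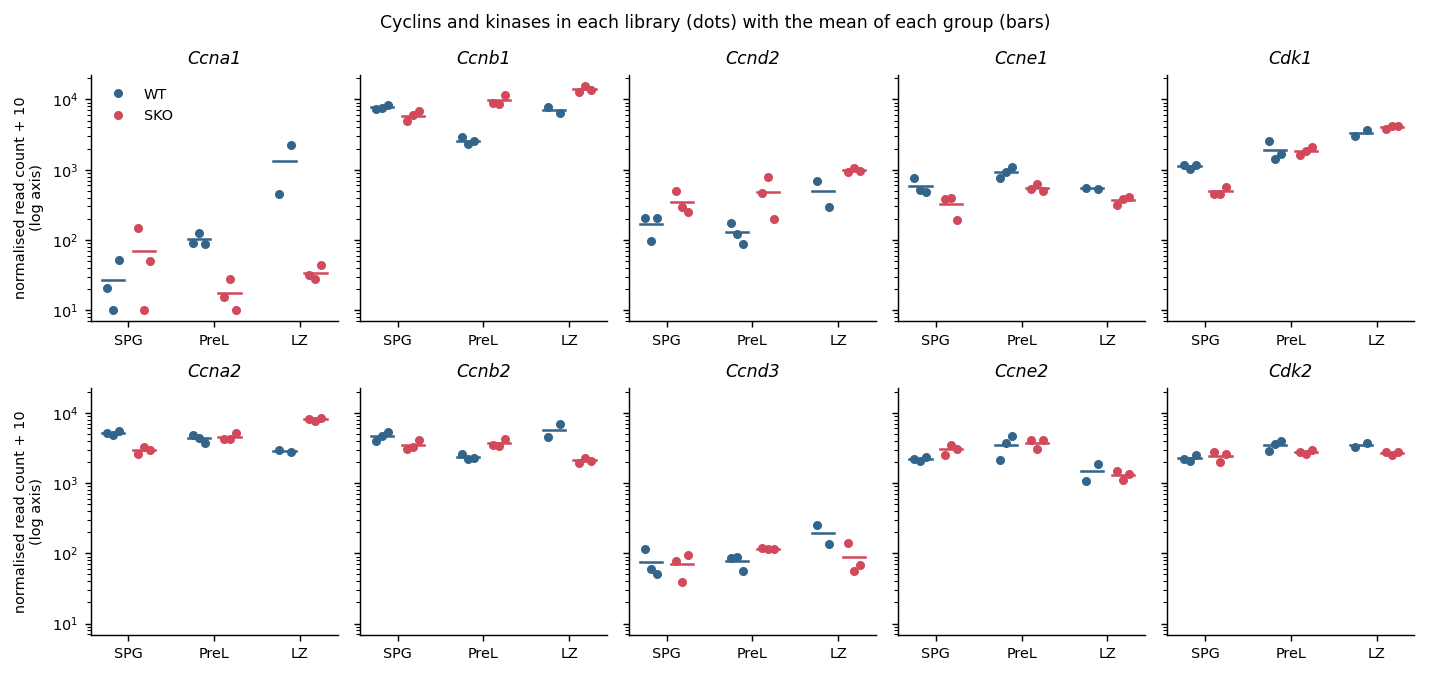
Normalised read count + 10 of each member (y axis, log scale) by stage (x axis), with 1 dot per library in blue (WT) and red (SKO) and a bar at each group's arithmetic mean. *Ccnb1* in PreL separates the genotypes, at 2287 to 2879 in WT and 8672 to 11454 in SKO, and *Ccna1* in LZ does so at 443 and 2204 against 17.7 to 33.4 (values without the added 10).

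Members were called in both directions, and which of them were called was not the same in each stage. In SPG, 1 of 10 members was called, lower in SKO, where 6.02% of 12846 genes tested were called (2.06% lower and 3.95% higher). In PreL, 3 of 10 were called (1 lower and 2 higher) against 11.1% of 13132 genes (5.83% lower and 5.32% higher). In LZ, 4 of 10 were called (2 lower and 2 higher) against 39.1% of 13724 genes (25.8% lower and 13.4% higher). The median log2 fold change of the members was -0.26 in SPG, 0.12 in PreL and -0.26 in LZ, beside 0.00, 0.04 and -0.13 over all genes tested. WT and SKO libraries did not overlap for 6 members in SPG (29.5% of all genes tested), 6 in PreL (37.4%) and 8 in LZ (70.3%). The share of members called in LZ was close to that of all genes. Without rescaling the counts were 3 lower in SPG, 1 lower and 4 higher in PreL, and 2 lower and 1 higher in LZ, where 7.61%, 30.8% and 39.3% of all genes were called. By the adjusted p-value alone 2, 5 and 5 members passed, beside 11.1%, 17.9% and 50.9% of all genes.

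**Figure D2:**
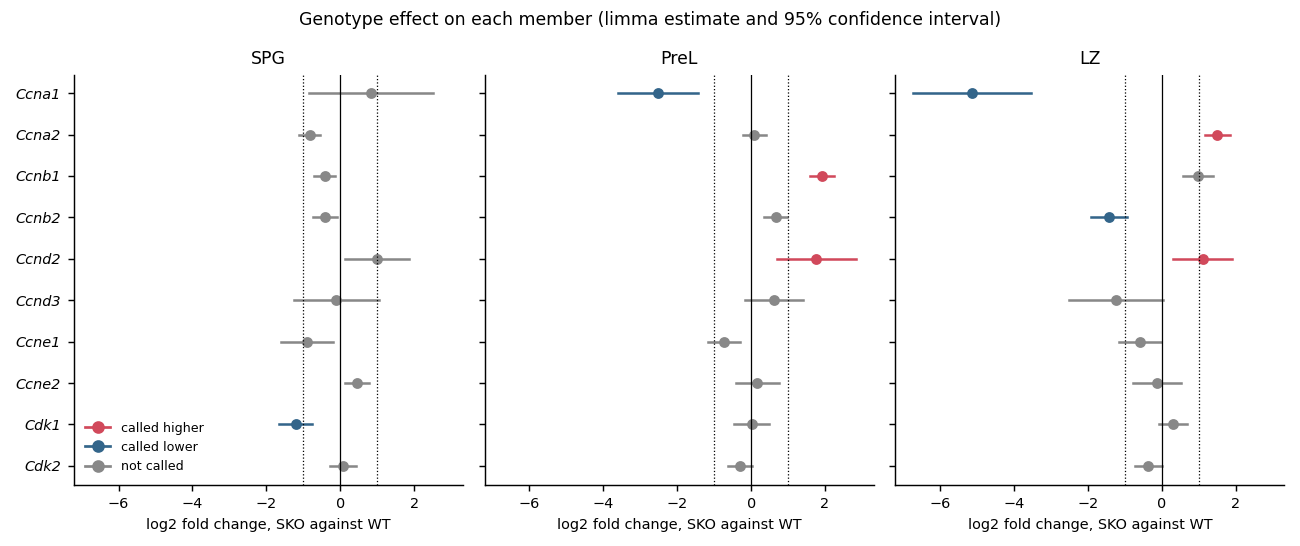
The log2 fold change of SKO against WT (x axis) for each member (y axis) in SPG, PreL and LZ, with dots for the limma estimates and lines for 95% confidence intervals, red where called higher, blue where called lower and grey where not called. Dotted lines mark the fold threshold, and *Ccna2* and *Ccnb2* lie on opposite sides of zero in LZ, at 1.499 and -1.437.

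*Ccnb1*, the main mitotic cyclin, showed the clearest contrast in PreL. Its normalised counts were 2879, 2287 and 2559 in the WT PreL libraries and 9029, 8672 and 11454 in the SKO PreL libraries. Every SKO library lay above every WT library, and the log2 fold change was 1.91 ± 0.15 (SE, adjusted p = 9.9e-05). In SPG the order was the opposite, at 7354, 7666 and 8381 in WT and 4903, 6021 and 6774 in SKO, without overlap but with a log2 fold change of -0.43 ± 0.13 that was not called (adjusted p = 0.056). In LZ the counts were 7764 and 6346 in WT and 12842, 15677 and 13574 in SKO, and the log2 fold change of 0.98 ± 0.17 (adjusted p = 0.0027) fell just under the fold threshold. It passed that threshold with edgeR (1.03), with DESeq2 (1.02), with a replicate block (1.03), without WT LZ replicate 2 (1.08) and without SKO LZ replicate 1 (1.05) or 3 (1.01). *Ccnb1* has 4 pseudogenes of 96.6% to 99.2% identity to its transcript, none of them listed in the table, so its uniquely mapped reads are an uncertain part of all its reads.

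*Ccnb2*, the other B-type cyclin of mitotic cells, was higher in SKO by a smaller amount in PreL and was lower in LZ. Its counts in PreL were 2574, 2183 and 2258 in WT and 3470, 3334 and 4278 in SKO, all SKO libraries above all WT ones, with a log2 fold change of 0.66 ± 0.14 (adjusted p = 0.012) under the fold threshold, which it passed without rescaling (1.38, adjusted p = 1.6e-04). In LZ they were 4560 and 6846 in WT and 1939, 2259 and 2065 in SKO. All SKO LZ libraries lay below both WT libraries, and *Ccnb2* was called lower at -1.44 ± 0.21 (adjusted p = 0.0010). In SPG, 4008, 4641 and 5259 in WT overlapped with 3074, 3293 and 4140 in SKO (log2 fold change -0.42 ± 0.15, adjusted p = 0.087). In LZ every SKO library was thus below WT in *Ccnb2* and above WT in *Ccnb1*.

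*Cdk1*, the kinase partner of the B-type cyclins, was called between genotypes in SPG and not in PreL or LZ. Its counts in SPG were 1177, 1014 and 1155 in WT and 443, 438 and 562 in SKO. The groups were well apart, and *Cdk1* was the member called in that stage (-1.21 ± 0.21, adjusted p = 0.0028). In PreL the WT libraries at 2554, 1430 and 1655 spanned the SKO libraries at 1596, 1814 and 2106, with a log2 fold change of 0.01 and a 95% confidence interval of -0.46 to 0.49. In LZ, 2978 and 3618 in WT stood against 3758, 4252 and 4179 in SKO (log2 fold change 0.29, 95% confidence interval -0.09 to 0.67, adjusted p = 0.17).

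The A-type cyclins separated in LZ. *Ccna2*, the cyclin A of dividing somatic and germ cells, was at 2907 and 2730 in WT LZ and 8202, 7605 and 8388 in SKO LZ, and was called higher at 1.499 ± 0.146 (adjusted p = 1.6e-04). In SPG its counts were 5161, 4845 and 5486 in WT and 2607, 3246 and 2963 in SKO. Those groups did not overlap either, and the log2 fold change of -0.83 ± 0.13 (adjusted p = 0.0016) was under the fold threshold on this scale and past it on the ERCC-calibrated values without rescaling (-1.10). In PreL the genotypes overlapped, at 3705 to 4852 in WT and 4222 to 5159 in SKO, with a 95% confidence interval of -0.23 to 0.40 on the log2 fold change. Its exons overlap those of the antisense gene *Exosc9*.

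*Ccna1* was higher in WT LZ than in WT PreL and had at most 10 reads in any SKO library of PreL or LZ. It had 41, 54 and 36 reads in the WT PreL libraries and 3, 10 and 0 in the SKO PreL libraries. In LZ it had 315 and 1191 reads in WT, or normalised counts of 443 and 2204, and 4, 5 and 8 reads in SKO, or 21.8, 17.7 and 33.4. SKO libraries lay below WT libraries in both stages, and *Ccna1* was called lower in PreL (-2.52 ± 0.49, adjusted p = 0.0086) and in LZ (-5.15 ± 0.68, adjusted p = 6.7e-04). With so few reads the size depends on the added count: over all settings tried the log2 fold change ran from -4.12 to -1.21 in PreL and from -6.34 to -3.996 in LZ. In SPG the reads were 7, 0 and 23 in WT and 70, 0 and 23 in SKO, and no genotype difference was detectable at this depth. The WT LZ library with more *Ccna1* was also the one with more late spermatocyte markers, 198134 against 85423 summed counts, and those markers were lower in the SKO libraries as given above. An antisense gene, *4931419H13Rik*, overlaps exons of *Ccna1* and reached 116 reads in a library, and with unstranded libraries their shared reads cannot be told apart.

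Of the E-type cyclins and *Cdk2*, which act at entry into S phase, none was called between genotypes. *Ccne1* was below WT in every SKO library of each stage, at 466 to 757 in WT against 183 to 382 in SKO in SPG, 763 to 1071 against 483 to 616 in PreL, and 544 and 528 against 305 to 393 in LZ. Its log2 fold changes were -0.89 ± 0.33 (adjusted p = 0.096), -0.74 ± 0.19 (adjusted p = 0.027) and -0.60 ± 0.24 (adjusted p = 0.075), so it passed the p threshold in PreL without reaching the fold threshold in any stage. Without rescaling it was called lower in SPG (-1.16, adjusted p = 0.024). In PreL its log2 fold change ran from -0.87 to -0.023 over the settings tried, with adjusted p-values up to 0.946. Its mean ERCC-calibrated counts in PreL, without rescaling, were 642 in WT and 639 in SKO, so the PreL difference rests on the rescaling. *Ccne2* was at 2030 to 2315 in WT SPG and 2517 to 3466 in SKO SPG without overlap (0.45 ± 0.15, adjusted p = 0.073), and overlapped between genotypes in PreL and LZ. Its exons overlap those of the antisense gene *Ints8*. *Cdk2* overlapped in SPG and PreL, and in LZ it was at 3200 and 3679 in WT and 2492 to 2788 in SKO (-0.37 ± 0.16, adjusted p = 0.086). The 95% confidence intervals for *Cdk2* were -0.27 to 0.41 in SPG, -0.63 to 0.02 in PreL and -0.74 to 0.00 in LZ.

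The members include the D-type cyclins *Ccnd2* and *Ccnd3*, which act in G1, and *Ccnd2* is known from spermatogonia. Their relative *Ccnd1*, in the list of 77 below, had higher mean normalised counts than either. It was at 2699, 2591 and 1168 in WT SPG, PreL and LZ and 2073, 1549 and 2319 in SKO. Its log2 fold changes were -0.39 (adjusted p = 0.127), -0.73 (adjusted p = 0.00645) and 0.97 (adjusted p = 0.00155), none of them called. *Ccnd2* was at 194, 87.4 and 195 in WT SPG and 485, 280 and 238 in SKO SPG, at 165, 113 and 76.5 in WT PreL and 454, 773 and 191 in SKO PreL, and at 684 and 289 in WT LZ and 904, 1048 and 965 in SKO LZ. In each stage all SKO libraries were above all WT libraries. It was called higher in PreL (1.76 ± 0.48, adjusted p = 0.034) and LZ (1.10 ± 0.34, adjusted p = 0.029) and not in SPG (0.99 ± 0.40, adjusted p = 0.13). The PreL call was lost without WT PreL replicate 2 or 4 (adjusted p = 0.099 and 0.098), without SKO PreL replicate 1 or 2 (both 0.11) and with no filter on low values (0.056). The LZ call was lost on the ERCC-calibrated values (0.058), in 1 fit of all libraries (0.074), without WT LZ replicate 3 (log2 fold change 0.48, adjusted p = 0.054) and without SKO LZ replicate 1, 2 or 3 (0.070, 0.088 and 0.072). *Ccnd2* is not particular to germ cells, and the Leydig, myoid and macrophage sums given above were higher in the SKO fractions too, with overlap of myoid and macrophage sums in PreL. The Sertoli sum overlapped between genotypes in PreL and LZ. It was 15730, 18874 and 1513 in the SKO PreL libraries and 24048 and 6317 in WT LZ, in the order of *Ccnd2* there. In the other groups the orders differed, and the part of these cells was not tested. *Ccnd3* had 13 to 170 reads per library and no call, with SKO above WT in PreL (104 to 107 against 45.9 to 79.1, log2 fold change 0.61 ± 0.35, adjusted p = 0.25) and overlap in SPG. In LZ it was at 239 and 124 in WT and 131, 46.0 and 58.5 in SKO, which overlapped, with a log2 fold change of -1.24 ± 0.55 (adjusted p = 0.094). It was called lower in LZ with a replicate block (-1.66, adjusted p = 0.0097) and without SKO LZ replicate 1 (-1.65, adjusted p = 0.043), and higher in PreL without rescaling (1.25, adjusted p = 0.030). *Ccnd3* shares exons with the antisense gene *Bysl* and has a pseudogene of 96.3% identity, and *Ccnd2* shares exons with the antisense gene *Gm43126*.

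The steps between stages show how the genotypes parted. From SPG to PreL in WT, 2 of 10 members were called, both lower, *Ccnb1* (-1.63 ± 0.13, adjusted p = 2.8e-04) and *Ccnb2* (-1.01 ± 0.14, adjusted p = 0.0047), where 3.75% of 12657 genes were called (1.21% lower and 2.54% higher). The call of *Ccnb2*, at the edge of the fold threshold, was lost in 7 of the settings tried, at -0.99 to -0.90. In SKO the same step had 1 call in 10, *Cdk1* at 1.93 ± 0.18 (adjusted p = 0.0024), beside 2.59% of 12882 genes (0.955% lower and 1.63% higher). *Ccnb1* changed by 0.74 ± 0.16 (adjusted p = 0.028) and *Ccna2* by 0.64 ± 0.14 (adjusted p = 0.028) there, below the fold threshold, and *Ccnb2* by 0.10 (95% confidence interval -0.25 to 0.44).

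From PreL to LZ in WT, 5 of 10 members were called beside 26.6% of 13759 genes (7.80% lower and 18.8% higher). *Ccna1* (3.19 ± 0.61), *Ccnd2* (1.76 ± 0.50), *Ccnb1* (1.31 ± 0.20) and *Ccnb2* (1.12 ± 0.22) were higher in LZ and *Ccne2* (-1.39 ± 0.35) lower, at adjusted p of 0.0052, 0.026, 0.0028, 0.0060 and 0.017. With 2 WT LZ libraries these calls leaned on single ones: 3 remained without WT LZ replicate 2, which ended those of *Ccnd2* (1.11, adjusted p = 0.20) and *Ccne2* (-1.002, adjusted p = 0.15), and *Ccnb2* fell under the fold threshold without WT LZ replicate 3 (0.83). *Ccnd2* was also lost without WT PreL replicate 4 (adjusted p = 0.072) and with no filter on low values (0.053). In SKO, 3 of 9 members tested were called (17.5% of 12477 genes, 6.93% lower and 10.6% higher): *Ccnd2* (1.21 ± 0.39, adjusted p = 0.039) and *Cdk1* (1.11 ± 0.14, adjusted p = 4.9e-04) higher and *Ccne2* (-1.56 ± 0.17, adjusted p = 2.2e-04) lower in LZ. *Ccna1* had too few reads to be tested, and the call of *Ccnd2* was lost in 8 settings, among them without SKO PreL replicate 1 or 3 and without each SKO LZ replicate. *Ccnb2* moved the opposite way to WT (-0.85 ± 0.14, adjusted p = 0.0022), under the fold threshold. On the ERCC-calibrated values without rescaling, where the median of all genes rose by 1.86 from PreL to LZ in WT and by 0.81 in SKO, 8 members were called in WT, all higher, where 80.0% of all genes were called, and *Ccne2* in WT turned to 0.44 and *Ccna2* in WT from -0.75 to 1.08. From SPG to PreL in SKO, where the median rose by 1.005, 9 members were called on that scale, all higher, beside 44.1% of all genes, and from PreL to LZ in SKO 4 were, all higher, beside 36.6%. By the adjusted p-value alone, 3 of 10 members passed from SPG to PreL in WT and 3 in SKO, beside 7.28% and 5.62% of all genes, and 7 of 10 from PreL to LZ in WT and 7 of 9 in SKO, beside 34.7% and 36.9%.

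The change in the genotype effect between stages was tested directly by an interaction term over all 17 libraries. Between SPG and PreL, 4 of 10 members passed an adjusted p-value of 0.05, where 0.362% of 13530 genes did (0.111% with a lower and 0.251% with a higher effect in PreL). The effect on *Ccnb1* was higher in PreL by 2.32 ± 0.21 (adjusted p = 5.1e-06), and *Ccnb1* passed in every setting tried, with adjusted p-values up to 2.4e-04. *Cdk1* (1.21 ± 0.26, adjusted p = 0.0496), *Ccnb2* (1.06 ± 0.23, adjusted p = 0.0496) and *Ccna2* (0.89 ± 0.18, adjusted p = 0.043) lay at the threshold. *Ccnb1* was the 1 member left with a pseudocount of 1, with edgeR, and without WT SPG replicate 2 or 3, SKO SPG replicate 1, WT PreL replicate 2 or 4, or any single SKO PreL or SKO LZ replicate, and 2 members were left without WT SPG replicate 1 or SKO SPG replicate 3. Between PreL and LZ, 3 members passed beside 38.2% of all genes (23.1% with a lower and 15.1% with a higher effect in LZ): *Ccna2* with an effect higher in LZ by 1.44 ± 0.19 (adjusted p = 1.1e-05), and *Ccnb2* and *Ccnb1* with effects lower in LZ, the differences being -2.07 ± 0.24 (adjusted p = 2.1e-06) and -0.91 ± 0.22 (adjusted p = 0.0030). *Ccna1*, with few reads, passed in neither (-3.56 ± 1.13, adjusted p = 0.16, and -2.27 ± 1.20, adjusted p = 0.15). Between PreL and LZ it passed in 3 settings, with a pseudocount of 50 (-2.53, adjusted p = 0.0058), without WT LZ replicate 2 (-3.44, adjusted p = 0.046) and without rescaling. *Ccnd3* was just short of the threshold there (-1.78 ± 0.71, adjusted p = 0.056) and passed in 7 settings. Without rescaling, where the median effect of all genes moved from -0.01 to 0.94 and from -0.31 to -1.12, 7 members passed in each (1 lower and 6 higher, then 6 lower and 1 higher), beside 45.0% and 54.1% of all genes.

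The balance within pairs of related genes moved as well, and as a ratio within a library it does not depend on the scaling. The level of a share does depend on the exon lengths used, which are the same for every library. Per length, *Ccnb1* made up 49.5% to 53.0% of the sum of *Ccnb1* and *Ccnb2* in WT SPG and 49.5% to 52.9% in SKO SPG. It made up 39.2% to 41.1% in WT PreL and 61.5% to 62.2% in SKO PreL, and 51.2% and 36.3% in WT LZ against 80.2% to 81.0% in SKO LZ. The genotypes overlapped in SPG and were apart in the later stages. *Ccna1* was 23.2% and 61.6% of the A-type pair in WT LZ and 0.459% to 0.784% in SKO LZ. *Cdk1* was 20.0% to 22.4% of *Cdk1* and *Cdk2* in WT SPG against 7.98% to 10.7% in SKO SPG, and 33.4% and 34.7% in WT LZ against 42.3% to 47.9% in SKO LZ, with overlap in PreL. *Ccne1* was a smaller part of the E-type pair in every SKO library of SPG (8.73% to 19.3% against 24.3% to 35.9%) and PreL (15.9% to 24.4% against 27.0% to 36.3%), with overlap in LZ. *Ccnd2* was 71.6% to 89.3% of the D-type pair in SKO LZ against 51.0% and 45.9% in WT LZ, with overlap in the other stages. These shares are descriptions, with 2 or 3 libraries a group.

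**Figure D3:**
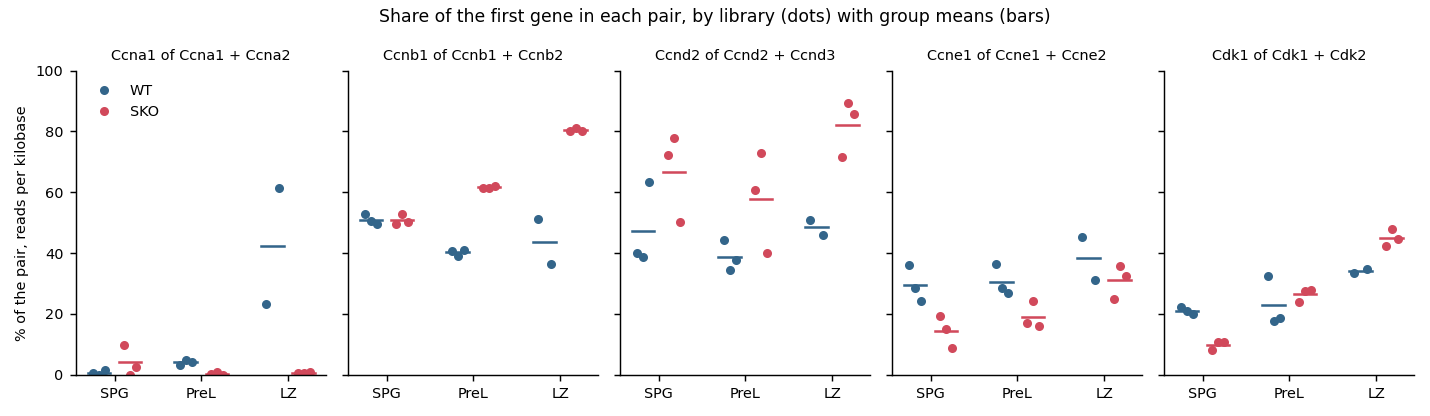
Share (y axis, %) of the first gene in each related pair, from reads per kilobase of exon, by stage (x axis), with 1 dot per library in blue (WT) and red (SKO) and bars at group means. The *Ccnb1* share has means of 51.0% and 50.9% in WT and SKO SPG, 40.3% and 61.8% in PreL, and 43.7% and 80.5% in LZ.

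Other genes of the cell cycle engine were taken from a list of 77, which does not include the members: partners of the D-type cyclins, other cyclins and kinases, CDK inhibitors, phosphatases and kinases acting on CDK1, the pocket proteins with the E2F factors, and the machinery of cyclin turnover. In SPG, 3 of the 74 tested were called, all lower in SKO, where 6.02% of all genes were called (2.06% lower), and the median was -0.17 beside 0.00 over all genes. They were the S-phase transcription factor genes *E2f2* (-2.14 ± 0.42, adjusted p = 0.0062) and *E2f7* (-1.53 ± 0.38, adjusted p = 0.021) and *Fbxo5* (-1.48 ± 0.31, adjusted p = 0.0088), an inhibitor of the ubiquitin ligase that degrades cyclins. In PreL, 4 of 76 were called lower and 5 higher, a share close to the 11.1% of all genes called. The largest on the lower side were *Cdkn2c*, a CDK4 and CDK6 inhibitor (-1.47 ± 0.24, adjusted p = 0.0045), *E2f7* (-1.42 ± 0.26, adjusted p = 0.0064) and *E2f1* (-1.19 ± 0.25, adjusted p = 0.012). On the higher side they were *Cdkn1b*, the CDK inhibitor p27 (2.62 ± 0.53, adjusted p = 0.011), *Ccnb3*, a cyclin of early meiotic prophase (1.39 ± 0.39, adjusted p = 0.037), and *Cdc20*, an activator of cyclin B degradation (1.21 ± 0.23, adjusted p = 0.0089). *Cdkn1b* had 4, 13 and 25 reads in the WT PreL libraries and 163, 145 and 60 in SKO, so the size of its change depends on the added count. Calls in PreL fell to 5 without SKO PreL replicate 1, and without rescaling they were 0 lower and 19 higher there and 10 lower and 0 higher in SPG.

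In LZ, 10 of 76 were called lower and 11 higher, beside 25.8% of all genes called lower and 13.4% higher, with a median of 0.14 beside -0.13 over all genes. In the class of other kinases, which includes the CDK2 activator *Spdya*, 3 of 14 were called lower and 1 higher. Of 8 inhibitors 2 were called lower and 1 higher, and of 18 pocket protein and E2F genes 2 lower and 2 higher. Among 16 other cyclins 1 was called lower and 4 higher. The phosphatases and kinases of CDK1 had 1 lower and 2 higher of 5 tested, and cyclin turnover 1 lower and 1 higher of 12. The largest on the lower side were *Cntd1*, a cyclin-like gene of crossover formation (81.7 ± 14.3 in SKO, n = 3, against 2030 ± 514 in WT, n = 2, log2 fold change -4.56 ± 0.31), *Pkmyt1*, an inhibitory kinase of CDK1 (-3.84 ± 0.53), and *Cdkn2d* (-3.33 ± 0.50), at adjusted p of 5.5e-05, 8.1e-04 and 0.0012. *Cdkn2d* had 44 reads in each WT LZ library and 1, 0 and 1 in SKO, and *Pkmyt1* had 121 and 250 in WT LZ and 3, 5 and 3 in SKO. Without rescaling the calls were 10 lower and 6 higher. The largest on the higher side were *Cdk9*, a kinase of transcription elongation (2.196 ± 0.238), *Cdkn2a* (2.18 ± 0.53) and *Ccnb3* (1.55 ± 0.33), at adjusted p of 2.6e-04, 0.011 and 0.0061. *Cdkn2a* was low, at 124.9 ± 62.44 in SKO (n = 3) and 22.54 ± 9.999 in WT (n = 2), so the size of its change depends on the added count.

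Genes that act directly on the members did not move as a block. *Wee1*, which restrains CDK1, was called higher in LZ (1.08 ± 0.15, adjusted p = 9.0e-04) where *Pkmyt1*, which does the same, was lower, and had log2 fold changes of -0.22 and -0.52 in SPG and PreL without a call. Of the phosphatases that release CDK1, *Cdc25b* was called higher in LZ (1.25 ± 0.23, adjusted p = 0.0030), *Cdc25c* was at 0.99 in PreL (adjusted p = 0.025, under the fold threshold) and 0.41 in LZ, and *Cdc25a* was at -0.27, -0.60 and 0.08 over the stages. *Spdya*, which binds and activates CDK2 at telomeres, was called lower in LZ (1403 ± 314 in SKO, n = 3, against 5210 ± 2276 in WT, n = 2, log2 fold change -1.85 ± 0.30, adjusted p = 0.0019) while *Cdk2* was not. *Cdkn1a*, the inhibitor p21, was not called in any stage, at 0.78, -0.45 and -0.53.

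**Figure D4:**
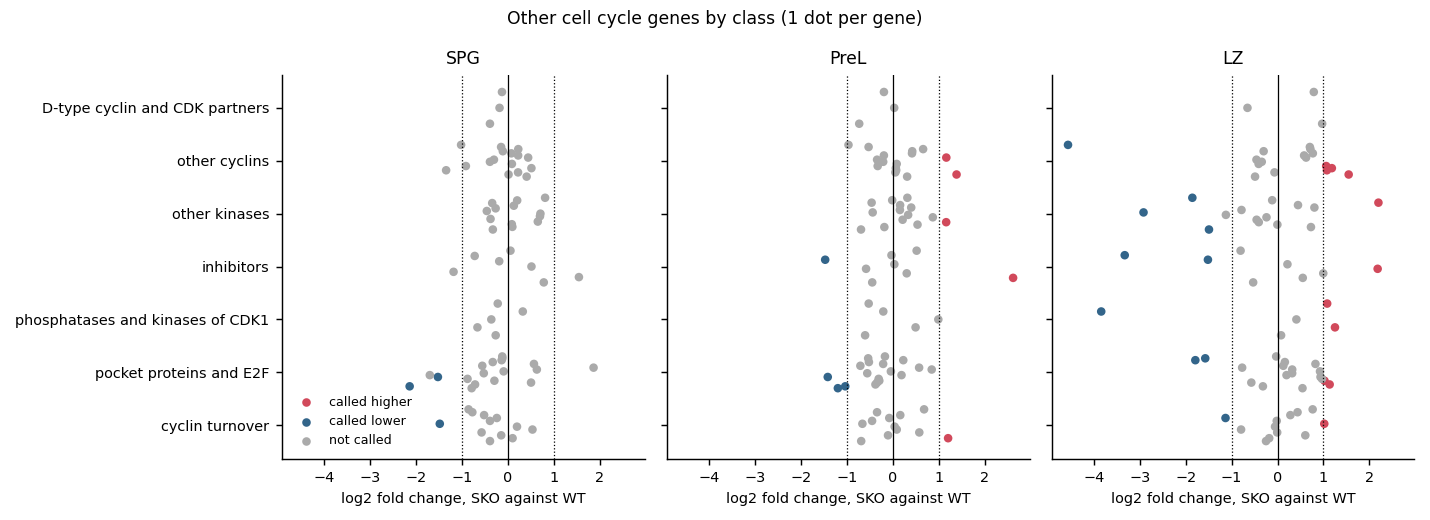
The log2 fold change of SKO against WT (x axis) of each listed cell cycle gene by class (y axis) in SPG, PreL and LZ, with 1 dot per gene tested, red where called higher, blue where called lower and grey where not called. Calls number 3 in SPG, 9 in PreL and 21 in LZ, and lie on both sides of zero in PreL and LZ.

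Across the 17 libraries, the closest pairs of members by Pearson correlation of log2 values were *Ccna1* with *Cdk2* (r = 0.71) and *Ccnb1* with *Ccnd2* (r = 0.69), and *Ccna2* was closest to *Cdk1* (r = 0.56). *Ccnb2* had no member closer than *Ccnd3* (r = 0.24). Among the 8666 genes that averaged 100 reads or more, the closest to *Cdk1* was *Ywhaq* (r = 0.97), to *Ccna1* *Dnajb14* (0.96), to *Ccnd2* *Ftl1* (0.95), to *Ccna2* *Naa38* (0.94), to *Ccnb2* and *Ccne2* *Cct5* and *Casp8ap2* (both 0.92), and to *Ccnb1* *Slc5a3* (0.92). *Cdk2*, *Ccne1* and *Ccnd3* were closest to *Arhgap29* (0.90), *Mrpl18* (0.87) and *Kctd13* (0.83). These correlations describe 17 libraries that share 3 stages, 2 genotypes and their depth, and the closest of 8666 genes is not to be set against the closest of a few members.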

How the data were processed

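The authors made gene counts from reads that mapped uniquely (HTSeq 0.11.2, mm10; the labels also list mm9, TopHat2 2.1.1 and Cufflinks 2.2.1) from Smart-seq2 libraries, which do not mark strand, multiplied them by an ERCC spike-in factor per library and deposited these calibrated signal values. Whole reads were recovered for 100% of values, within 0.01 of a whole number. For each comparison the values were rescaled by median-of-ratios size factors. Genes averaging fewer than 10 recovered reads were dropped, and log2(value + 10) was tested with limma 3.58.1 (mean-variance trend) in R 4.3.3, since the values are calibrated and not raw counts. A call needed both an adjusted p-value under 0.05 and a log2 fold change beyond 1 in either direction, the study's thresholds, and interaction terms needed the p-value alone. edgeR 4.0.16 and DESeq2 1.42.0 on the recovered reads, other scalings, pseudocounts (1 and 50), filters, a replicate block and leaving out each replicate were the alternatives. The model was tested on simulated data.

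The members, the list of 77 cell cycle genes and the marker lists were chosen with earlier results of these data known. Named in the text are all members, *Nat10*, the 3 listed genes with the largest called change in each direction and stage, the direct regulators *Cdkn1a*, *Cdkn1b*, *Cdkn2c*, *Cdkn2d*, *Cdc25a*, *Cdc25b*, *Cdc25c*, *Wee1*, *Pkmyt1*, *Ccnb3* and *Spdya*, the D-type cyclin *Ccnd1*, and the gene most like each member. *Mybl1* stands in both the list of 77 and the late spermatocyte markers. *Meioc*, *Ybx3* and *Adgre1* were matched by the older symbols *Gm1564*, *Csda* and *Emr1*. Exon lengths, overlaps and copies (BLAST 2.17.0, at least 95% identity over 150 bases) used GENCODE M21 for GRCm38. Reads without molecular identifiers are not independent molecules, and the floor of 3 reads covers counting error only.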

Additional observations from a re-analysis of the deposited data

Results flagged for a closer look

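The genotype effect differed between neighbouring stages for 4 members, by the interaction term (limma, adjusted over all genes tested). From SPG to PreL the log2 effect of SKO against WT moved by 2.32 for *Ccnb1*, 1.21 for *Cdk1*, 1.06 for *Ccnb2* and 0.89 for *Ccna2*. From PreL to LZ it moved by 1.44 for *Ccna2*, -0.91 for *Ccnb1* and -2.07 for *Ccnb2*. Over the alternatives the adjusted p-value of *Ccnb1* between SPG and PreL ran from 4.5e-23 to 2.4e-04, and those of *Cdk1*, *Ccnb2* and *Ccna2* each reached 0.12. Between PreL and LZ they reached 0.047 for *Ccna2*, 0.017 for *Ccnb1* and 2.5e-05 for *Ccnb2*. Spermatid and late spermatocyte markers, abundant in WT PreL and WT LZ and low in the SKO libraries, moved with the stage and the genotype. Spermatogonial markers were higher in SKO SPG and SKO LZ without overlap (20924 to 24976 against 10090 to 16928 summed counts in LZ). The part of these markers in these differences was not tested.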

How the results depend on the processing

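Of 1582 refitted log2 fold changes of members, 1406 kept their direction and their side of the thresholds, 84 lost a call, 41 gained one and 51 changed sign. None of the sign changes was called on both sides, and 3 were called on one, all from PreL to LZ in WT without rescaling. The cause was not tested except where the setting leaves out samples or genes.

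On the ERCC-calibrated values without rescaling, SKO against WT gave 3 members and 10 listed cell cycle genes in SPG (1 and 3 with rescaling) and 5 and 19 in PreL (3 and 9). The stage steps gave 1 in WT and 9 in SKO from SPG to PreL (2 and 1 with rescaling) and 8 from PreL to LZ in WT (5), and the changes of the genotype effect 7 and 7 (4 and 3). Signs turned for *Cdk2* in SPG (-0.20) and PreL (0.42), from PreL to LZ in WT for *Ccna2* (1.08), *Ccne1* (0.92), *Ccne2* (0.44) and *Cdk2* (1.69) and in SKO for *Ccnb2* (0.001), *Ccnd3* (0.23), *Ccne1* (0.22) and *Cdk2* (0.78), and in the genotype effect for *Ccne2* (0.71) and *Cdk2* (0.61) between SPG and PreL and *Ccne1* (-0.70) and *Cdk1* (-0.57) between PreL and LZ.

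With no fold threshold, calls of members rose to 2 in SPG, 5 in PreL, 3 from SPG to PreL in SKO and 7 from PreL to LZ in SKO. Those of listed genes rose to 10, 23 and 34 in SPG, PreL and LZ. Of all genes tested, 11.1%, 17.9% and 50.9% passed in SPG, PreL and LZ, and 5.62% and 36.9% in the SKO steps. A joint fit of all libraries gave 6 listed genes in SPG and 1 member from SPG to PreL in WT, and turned *Cdk2* from PreL to LZ in WT (0.004). A pseudocount of 50 gave 1 member from SPG to PreL in WT and 5 for the effect between PreL and LZ. The effect between SPG and PreL gave 1 member with a pseudocount of 1 or edgeR and 2 with no filter or a mean of 50 reads. Near zero, signs turned for *Cdk1* in PreL with TMM (-0.009), edgeR (-0.022) and DESeq2 (-0.021), *Ccnd3* from SPG to PreL in WT with edgeR (-0.027) and DESeq2 (-0.017), and *Cdk2* in the effect between PreL and LZ with edgeR (0.11).

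Leaving out each replicate gave 1 to 1, 2 to 3 and 3 to 5 members called in SPG, PreL and LZ, and 2 to 4, 5 to 8 and 18 to 23 listed genes. It gave 1 to 2 and 3 to 6 members for the WT steps, 1 to 1 and 2 to 3 for the SKO steps, and 1 to 4 and 3 to 4 for the changes of effect. Signs turned within these ranges: *Ccnd3* in SPG (-0.34 to 0.24), *Cdk2* in SPG (-0.02 to 0.22), *Ccna2* (-0.03 to 0.16), *Ccne2* (-0.16 to 0.40) and *Cdk1* (-0.17 to 0.24) in PreL, *Ccne2* in LZ (-0.59 to 0.26), *Ccnd3* from SPG to PreL in WT (-0.18 to 0.38), *Ccnb2* (-0.018 to 0.23) and *Ccnd2* (-0.085 to 0.88) in SKO, and the effects on *Ccne1* between SPG and PreL (-0.19 to 0.32) and on *Ccne2* (-0.69 to 0.11) and *Cdk2* (-0.148 to 0.089) between PreL and LZ. Where a group kept 1 library, that library was assumed to vary like the others. The share of all genes called without each replicate is not given here, so these counts stand without a background.

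Deviations of same-numbered libraries correlated at -0.05 to 0.11 over 6 pairs of a stage and -0.19 to 0.13 over 12 pairs of a genotype. Same-numbered libraries that differed in both ran from -0.078 to 0.422. The highest were SKO PreL replicate 2 with WT LZ replicate 2 (0.38) and SKO PreL replicate 3 with WT LZ replicate 3 (0.422). Deviations from the mean of so few libraries depend on each other, so whether replicate numbers pair the libraries was not settled. With the replicate block, 6 members were called in LZ (3 lower and 3 higher, 4 without it), *Ccnb1* and *Ccnd3* being gained, 6 listed genes were called in SPG, 1 member passed between SPG and PreL, and signs turned for *Cdk2* in SPG (-0.032), *Ccna2* (-0.11) and *Cdk1* (-0.16) in PreL, *Ccnd2* from SPG to PreL in WT (0.022) and SKO (-0.28), and the effect on *Ccne1* between SPG and PreL (-0.071). From PreL to LZ in WT the block left no residual degrees of freedom and was not run. The share of all genes called with the block is not given here, so the gain in members stands without a background. SKO LZ libraries had the fewest reads, which limits *Ccna1* and *Ccnd3* there.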
